A study of Mus musculus with 6 samples.

Results

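The genes described here are 42 mouse genes of the 2 transcription programmes that a cell starts when amino acids run short or proteins misfold. They were chosen by name, from their known roles, out of 18193 genes that have a probe set carrying a single gene symbol. The ATF4 amino acid branch holds 24 of them, from Asns to Atf5. The ER chaperone branch holds the other 18, from Hspa5 to Syvn1. Each gene is represented by its brightest probe set, and all 42 passed the filter on low signal. They were measured in RNA of CD4+ T cells from mouse spleen and from peripheral and mesenteric lymph nodes, cultured in vitro, on 6 oligonucleotide arrays. The groups are named Control, RA and Ro in the labels, with 2 arrays each. The series title names retinoic acid, which is how RA is read here, and the labels do not spell out Ro. A culture recipe is given for Control replicate 2 alone. It lists human IL-2 and TGF-b1, then mouse IL-23, IL-21, IL-6, IL-1b and TNF-a, with antibodies to mouse IL-4 and IFN-gamma, over 5 days. The sources used here do not say whether the other 5 samples received the same mixture, nor give dose, time, strain, age or sex for them. Nothing says that replicates came from separate animals or cultures, so the p-values below speak only of the spread between arrays. In RA and Ro that spread may be technical.

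ATF4 is a transcription factor whose protein is made mainly when the translation factor eIF2 alpha is phosphorylated. The kinases that do so include GCN2, which senses uncharged tRNA, and PERK, which senses unfolded protein in the endoplasmic reticulum (ER). ATF4 then raises genes that make, import and charge amino acids, along with stress regulators such as Ddit3 (CHOP), Atf3 and Trib3. Proliferating T cells draw on the same transporters and on the serine and folate enzymes for growth. The ER chaperone branch is driven chiefly by cleaved ATF6 and by spliced XBP1, and it supplies chaperones, disulfide isomerases and the machinery that sends misfolded protein to degradation. Control of ATF4 translation and of Xbp1 splicing cannot be read from probe set signal.

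The promoters of the branches carry different sequence elements, by which many of these genes are known. The sequences are from RefSeq, build GRCm38.p6, in windows from 250 bases before to 50 after each gene's start, and matched 20 of the 24 ATF4 branch genes and 17 of the 18 ER genes. The amino acid response element bound by C/EBP-ATF dimers, searched as TGATGNAA on both strands, lay in 8 of the 20 (40%), in 1 of the 17 (5.88%) and in 4.51% of all 27025 genes with a window. The ER stress response element, searched on both strands as CCAAT and CCACG with 9 bases of any kind between them, lay in 8 of the 17 ER genes (47.1%), in 0 of the 20 and in 0.137% of all genes. A match describes the letters in the window and is not evidence of binding. The stretches below, written 5′ to 3′ on the gene's strand, show the first element in ATF4 branch genes, with the fixed letters of the motif in capitals. Slc7a11 carries it on each strand, and Trib3, Gars and Vldlr also hold a match.
Asns, chr6:7693210-7693252, minus strand: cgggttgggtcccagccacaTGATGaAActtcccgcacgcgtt
Chac1, chr2:119351029-119351076, plus strand: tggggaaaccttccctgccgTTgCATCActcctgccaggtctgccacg
Atf3, chr1:191183416-191183463, minus strand: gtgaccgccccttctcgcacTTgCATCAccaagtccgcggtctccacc
Aars, chr8:111033710-111033757, plus strand: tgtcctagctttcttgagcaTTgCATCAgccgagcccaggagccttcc
Slc7a11, chr3:50443633-50443699, minus strand: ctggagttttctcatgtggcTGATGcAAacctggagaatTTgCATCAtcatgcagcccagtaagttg

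The next stretches show the ER stress response element in the same way, its fixed letters in capitals, in chaperone and degradation genes whose signals are described further on. Hsp90b1 holds it on both strands, and Canx and Dnajc3 also have a match.
Hspa5, chr2:34772005-34772063, plus strand: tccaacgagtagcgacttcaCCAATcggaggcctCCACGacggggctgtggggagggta
Hsp90b1, chr10:86705513-86705676, minus strand: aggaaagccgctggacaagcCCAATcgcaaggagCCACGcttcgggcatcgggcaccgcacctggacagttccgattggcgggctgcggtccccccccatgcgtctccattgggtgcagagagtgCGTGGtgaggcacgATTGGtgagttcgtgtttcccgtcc
Pdia6, chr12:17266471-17266529, plus strand: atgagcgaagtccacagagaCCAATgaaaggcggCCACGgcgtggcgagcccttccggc
Calr, chr8:84847055-84847113, minus strand: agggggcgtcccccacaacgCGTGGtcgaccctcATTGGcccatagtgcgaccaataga
Creld2, chr15:88819500-88819558, plus strand: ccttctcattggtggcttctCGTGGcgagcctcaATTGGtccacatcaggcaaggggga
Syvn1, chr19:6046512-6046570, plus strand: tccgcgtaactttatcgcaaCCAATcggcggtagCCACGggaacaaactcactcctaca

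Herpud1, which helps to clear misfolded ER protein, is shown because it carries an element of each branch. The amino acid response element comes first, and the second run of capitals is the ER stress response element II, searched on both strands as ATTGG and CCACG with 1 base of any kind between them. That second form lay in 2 of the 17 ER genes, Herpud1 and Dnajb11, in 0 of the 20 ATF4 branch genes and in 0.0444% of all genes. The unfolded protein response element TGACGTGG, on both strands, lay in 0 of either branch and in 0.714% of all genes.
Herpud1, chr8:94386297-94386407, plus strand: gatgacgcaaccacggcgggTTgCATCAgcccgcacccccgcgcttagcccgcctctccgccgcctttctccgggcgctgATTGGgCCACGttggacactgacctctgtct

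Signals are given after scaling each array to the same median over the probe sets tested, with factors from 0.840 to 1.44. Control replicate 2 stood apart from the rest of the arrays. Its correlations with the other 5 ran from 0.868 to 0.878, whereas those 5 correlated with each other at 0.948 to 0.970, so branch medians and non-overlapping genes in the Control comparisons are given with and without it. It had the highest Xist signal, 6227, against 578 on Control replicate 1 and from 11.3 to 20.9 in RA and Ro. Its Y-linked Eif2s3y signal was 1.4, against 679.7 to 925 on the other 5. The 2 Control arrays thus differ in the sex make-up of their cells and are not technical repeats of 1 RNA. Xist on Control replicate 1 was also far above its signal on every RA and Ro array. The Control group therefore differs from RA and Ro in this make-up with or without Control replicate 2. The summed signal of 9 T cell markers was 27170 and 31950 in Control, 32190 and 27830 in RA, and 27620 and 30020 in Ro. Control replicate 2 was the highest of the 6 arrays for 4 of the 9 and the lowest for the other 5. Among them Cd3d was between 6244 and 8722 on all 6 arrays and Cd4 between 667 and 1504. The summed signal of 15 B cell and plasma cell markers, a cell type with abundant ER, ran from 3813 and 6803 on the Control arrays to 4093 and 4857 on RA and 4176 and 4931 on Ro. The sum was highest on Control replicate 2, which was the highest array for 3 of the 13 markers tested and the lowest for 3. Among the markers, Cd79a was dim at 1.81 to 15.6, as were Jchain at 6.26 to 39.0 and Sdc1 at 8.43 to 21.7. Other markers of the list carried the sum, and the part of such cells in the ER branch signals was not tested.

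Both branches varied by single arrays more than by group. With each gene centred on its mean log2 signal over the 6 arrays, the ATF4 branch had a median of 1.66 on Control replicate 2 and of -0.72 on Control replicate 1, the ends of its range. The RA arrays lay at -0.31 and -0.47, and the Ro arrays at 0.43 and -0.64. The ER branch had medians of 0.90 on Control replicate 2, -0.46 on Control replicate 1, -0.12 and -0.32 on RA, and -0.03 and -0.27 on Ro. Medians over all genes tested stayed between -0.14 and 0.15. Control replicate 2 held the highest signal of the 6 arrays for 21 of 24 ATF4 branch genes and 15 of 18 ER genes, against 41.8% of all genes tested. Once that array was set aside, Ro replicate 1 held the highest of the remaining 5 for 19 of 24 ATF4 branch genes (79.2%), against 7 of 18 ER genes (38.9%) and 27.8% of all genes. Control replicate 1 was the lowest of those 5 for 12 ATF4 branch genes and 9 ER genes, against 28.7% of all genes. In a bulk sample, more cells using a gene and more RNA per cell cannot be told apart.

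**Figure D1:**
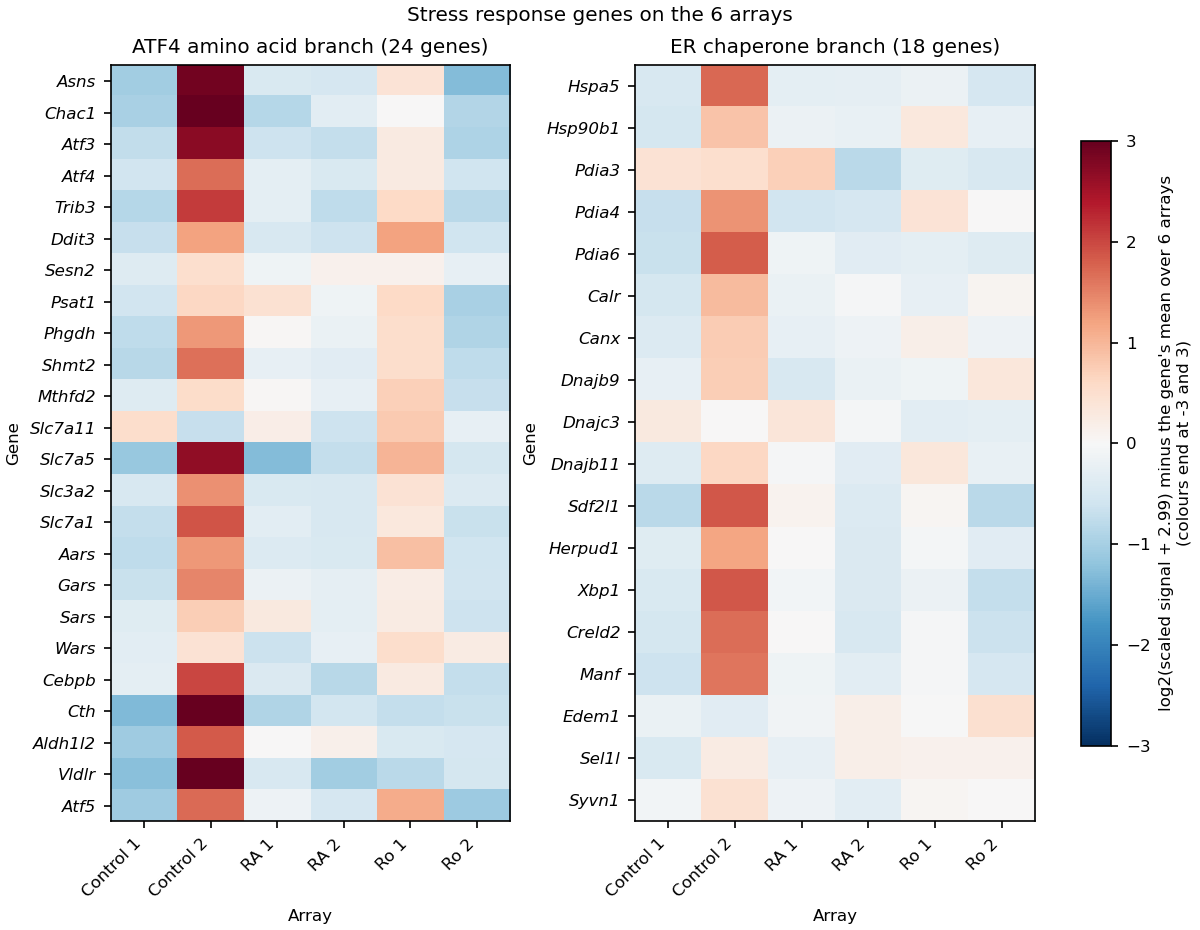
Log2 signal of the 42 genes on each of the 6 arrays, centred per gene on its mean over the arrays, with the ATF4 amino acid branch on the left and the ER chaperone branch on the right. Red is above and blue below the mean of the gene. The column of Control replicate 2 is high for 21 of 24 and 15 of 18 genes, and that of Ro replicate 1 is the next high one in the left panel.

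**Figure D2:**
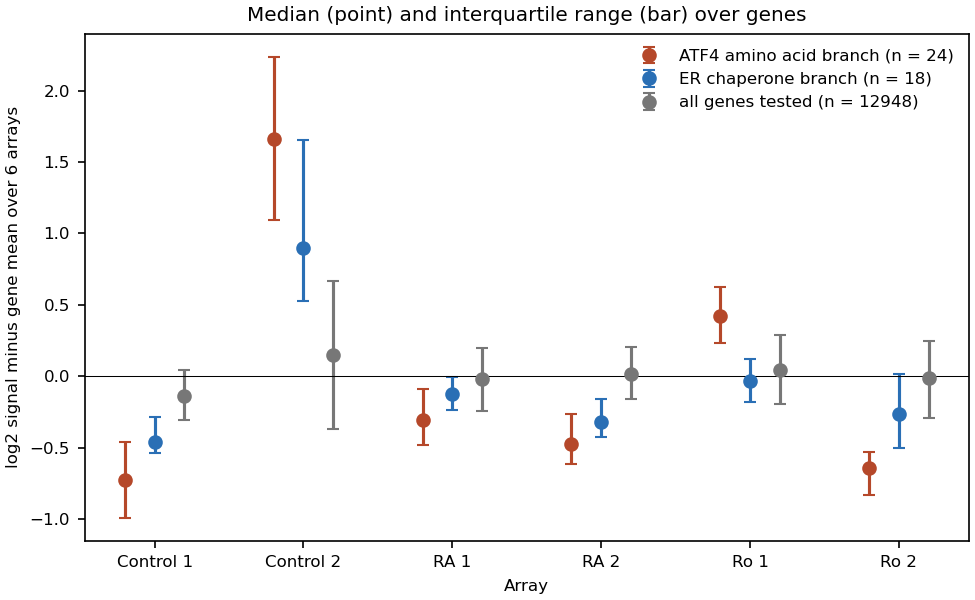
Centred log2 signal per array for the ATF4 branch, the ER branch and all genes tested, with points for medians over genes and bars for the interquartile range. The ATF4 branch spans medians of -0.72 to 1.66, while all genes stay between -0.14 and 0.15.

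Regulators of the ATF4 branch come first. Atf4 itself had signals of 1531 and 7313 on Control replicates 1 and 2, of 1870 and 1661 on the RA arrays and of 2782 and 1514 on the Ro arrays. Control replicate 2 was 4.78 times its replicate and Ro replicate 1 was 1.84 times its own, while RA, the first Control and the second Ro array were close together. Ddit3, which encodes the pro-apoptotic factor CHOP, had signals of 384 and 1447 in Control, 449 and 402 in RA, and 1437 and 409 in Ro. On these brightest probe sets, Ddit3 is the regulator for which Ro replicate 1 came nearest to Control replicate 2. The other Ddit3 probe set had 201 on Ro replicate 1 against 314.7 on Control replicate 2. Atf3, a stress-induced repressor, gave 24.02 and 291 in Control, 26.4 and 24.6 in RA, and 51.1 and 20.7 in Ro. Trib3, a pseudokinase that restrains the ATF4 pathway, gave 144 and 1126 in Control, 214 and 154 in RA, and 397 and 148 in Ro. Atf5, a relative of ATF4, gave 115 and 800.2 in Control, 221 and 171 in RA, and 529.6 and 113 in Ro. On these 3 genes the order was the same, with Control replicate 2 highest and Ro replicate 1 second. Chac1, which breaks down glutathione, had 33.9 and 584 in Control, 37.0 and 54.8 in RA, and 69.7 and 36.1 in Ro. Cebpb, a partner of ATF4 at its response element, had 380.4 and 1891 in Control, 349.9 and 263 in RA, and 572 and 284 in Ro, so both RA signals lay below both Control signals. Sesn2, which restrains mTORC1 when leucine is short, varied less on its brightest probe set, with 123 and 229.6 in Control, 148 and 177 in RA, and 176 and 135 in Ro. Its other probe set tested varied more, with 76.65 and 293.5 in Control, 207.1 and 70.64 in RA, and 90.48 and 50.4 in Ro.

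Amino acid synthesis genes covered both the widest and some of the narrower ranges. Asns, the asparagine synthetase whose promoter stretch is printed above, had signals of 179 and 2816 in Control, 271 and 262 in RA, and 499.9 and 151 in Ro. Its Control replicates therefore differed 15.7-fold and the Ro replicates 3.30-fold, with the RA pair nearly equal. Cth, which makes cysteine from cystathionine, was at 9.93 and 592 in Control, 14.4 and 19.1 in RA, and 16.8 and 17.5 in Ro. It was bright on Control replicate 2 alone, and the Ro arrays did not separate. Phgdh, the first enzyme of serine synthesis, had 1116 and 4633 in Control, 1928 and 1645 in RA, and 2728 and 1002 in Ro. Psat1, the next enzyme of that path, had 746 and 1733 in Control, 1541 and 1031 in RA, and 1698 and 567 in Ro. For Psat1 the first RA and first Ro arrays came close to Control replicate 2, unlike for Asns. Of the mitochondrial folate enzymes, Shmt2 had 507 and 2839 in Control, 755 and 716 in RA, and 1313 and 529 in Ro. Mthfd2 had 1047 and 2016 in Control, 1411 and 1152 in RA, and 2247 and 842 in Ro, with its highest signal on Ro replicate 1. Its other probe set was instead highest on Control replicate 2, at 2091 against 1364 on Ro replicate 1. Aldh1l2 had 8.53 and 84.3 in Control, 21.6 and 24.1 in RA, and 14.6 and 14.1 in Ro, so the RA signals lay above both Ro signals.

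Transport and tRNA charging genes followed. Slc7a5 and Slc3a2 encode the light and heavy chains of the LAT1 transporter, which brings leucine into activated T cells. Slc7a5 had signals of 197 and 2785 in Control, 177 and 264 in RA, and 893 and 303 in Ro, and both RA signals lay below both Ro signals. Slc3a2 had 1127 and 4114 in Control, 1156 and 1137 in RA, and 2140 and 1195 in Ro, again with RA below Ro, though by little on the second Ro array. Slc7a1, a carrier of arginine and lysine, had 353 and 2140 in Control, 465 and 416 in RA, and 718 and 362 in Ro. Slc7a11, the cystine carrier, was dim on all arrays, at 11.1 and 3.02 in Control, 8.24 and 3.37 in RA, and 13.8 and 5.25 in Ro, and it is the only ATF4 branch gene lower on Control replicate 2 than on replicate 1. Vldlr, a lipoprotein receptor that ATF4 raises under stress, was at 8.45 and 476 in Control, 16.6 and 10.4 in RA, and 12.7 and 16.1 in Ro, bright on Control replicate 2 alone. The alanine tRNA synthetase Aars had 529.9 and 2204 in Control, 674 and 657 in RA, and 1671 and 595 in Ro. Gars, its glycine counterpart, had 722 and 3163 in Control, 1024 and 951 in RA, and 1334 and 773 in Ro. Sars, for serine, had 1788 and 3886 in Control, 2834 and 1879 in RA, and 2727 and 1510 in Ro. These 3 were highest on Control replicate 2, and Aars and Gars were second highest on Ro replicate 1. Wars, the tryptophan enzyme, which interferon gamma also induces, had 906 and 1514 in Control, 715 and 944 in RA, and 1629 and 1345 in Ro. Its Ro arrays were closer to each other, and both lay above both RA arrays.

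ER chaperones were high on Control replicate 2 and close together elsewhere. Hspa5, the chaperone BiP that holds the stress sensors inactive, had signals of 2094 and 9737 in Control, 2404 and 2439 in RA, and 2575 and 2059 in Ro. For BiP the second Control array was 4.65 times the first, and the other 5 spanned a narrow range. Xbp1, whose spliced form drives the branch, had 1286 and 6436 in Control, 1674 and 1318 in RA, and 1585 and 1091 in Ro, for total signal of both spliced and unspliced forms. Pdia6, a disulfide isomerase, had 404 and 2252 in Control, 586 and 503 in RA, and 519 and 491 in Ro. Manf, a secreted stress factor, had 685 and 3252 in Control, 972 and 843 in RA, and 1036 and 742 in Ro. Creld2, another stress-induced ER protein, had 196 and 907 in Control, then 285 and 204 in RA, then 277 and 181 for the Ro arrays. On each of these genes Control replicate 2 was over 4 times replicate 1, and the RA and Ro arrays overlapped. Sdf2l1, a partner of the BiP cycle, had the widest Control gap of the ER branch at 6.53-fold, with 100.4 and 656 in Control, 189 and 131 in RA, and 183 and 100.1 on the Ro arrays.

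The other ER genes had smaller gaps. Calr, a calcium-binding lectin chaperone, had signals of 1976 and 5531 in Control, 2482 and 2813 in RA, and 2437 and 3019 in Ro. Hsp90b1, the ER form of HSP90, had 899 and 2346 in Control, 1155 and 1123 in RA, and 1628 and 1103 in Ro. Pdia4, another disulfide isomerase, had 91.7 and 386 in Control, 99.5 and 105 in RA, and 201 and 152 in Ro, so both RA signals lay below both Ro signals. Herpud1 had 595 and 1761 in Control, 778 and 573 in RA, and 739 and 604 in Ro. Dnajb9, a BiP co-chaperone, had 206 and 414 in Control, 175 and 213 in RA, and 226 and 311 in Ro, with both RA signals below both Ro signals. Canx, a lectin chaperone, and Dnajb11, a BiP co-chaperone, were 2.29 and 2.01 times as bright on Control replicate 2 as on replicate 1. Degradation genes other than Herpud1 had smaller gaps. Edem1, which tags misfolded glycoproteins, had 571 and 515 in Control, 609 and 738 in RA, and 654 and 919 in Ro, so Control was lowest. Sel1l and Syvn1 form the ubiquitin ligase that removes misfolded proteins, and their Control replicates differed by 1.63 and 1.46 times. Syvn1 had 351 and 512 in Control, 332 and 299 in RA, and 388 and 370.4 in Ro, lowest on the RA arrays. Dnajc3, a BiP co-chaperone that also restrains PERK, had 1256 and 1024 in Control, 1318 and 986 in RA, and 817 and 833 in Ro. Pdia3, the isomerase that works with Calr and Canx, had 2766 and 2914 in Control, 3371 and 1180 in RA, and 1616 and 1490 in Ro, with its RA replicates further apart than those of any other of the 42 genes on the log2 scale (a gap of 1.51).

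**Figure D3:**
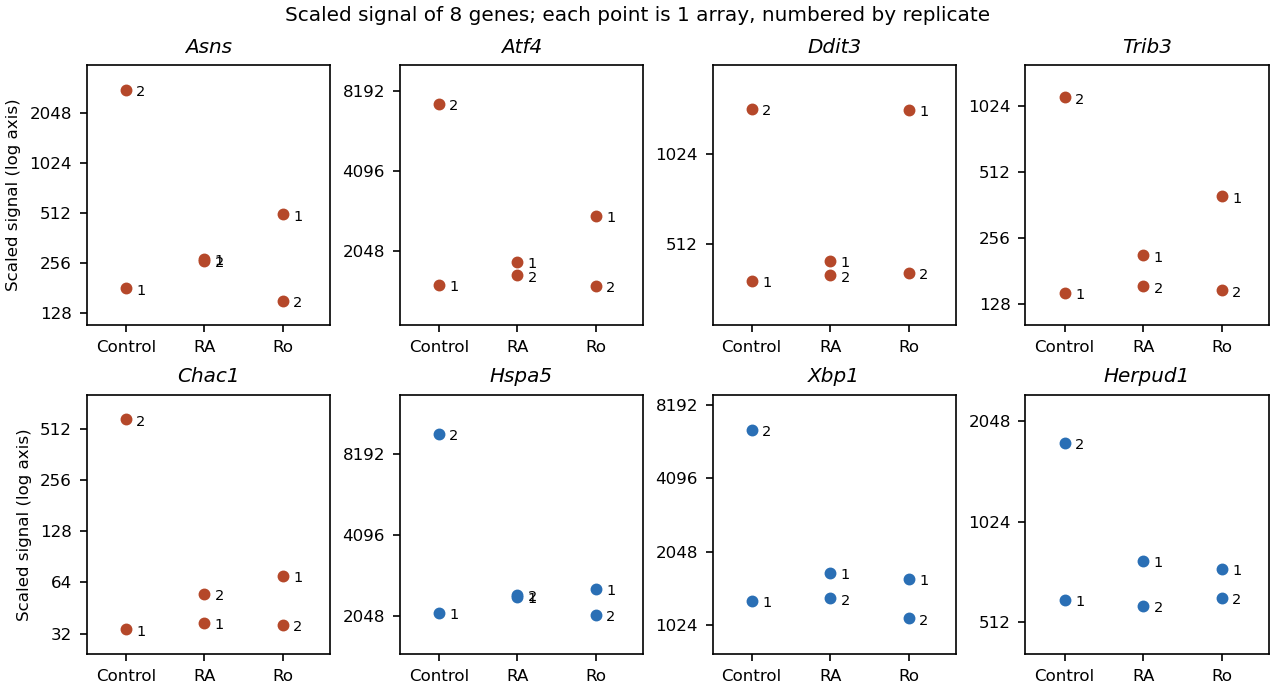
Scaled signal, on log axes, of Asns, Atf4, Ddit3, Trib3 and Chac1 (red) and of Hspa5, Xbp1 and Herpud1 (blue) by group. Each point is an array, numbered by replicate. Control replicate 2 lies far above replicate 1 for Asns (2816 against 179) and Hspa5 (9737 against 2094), whereas Ro replicate 1 lies above replicate 2 for Asns (499.9 against 151) and near it for Hspa5 (2575 against 2059).

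RA and Ro were compared over their 4 arrays, the comparison that does not use Control. By limma with Benjamini-Hochberg adjustment, 0 of the 42 genes passed an adjusted p of 0.05, and 11 of 29531 probe sets did (0.0372%). The adjusted p of the 42 genes ran from 0.947 to 1.00. At an unadjusted limma p under 0.05 there were 3 genes, all lower in RA, and 4.54% of probe sets passed that mark. Wars had means of 829.5 ± 162 in RA and 1487 ± 200.3 in Ro (SD, n = 2 each), a limma log2 difference of -0.85 (SE 0.23, unadjusted p = 0.00785). Pdia4 had means of 102 ± 3.51 in RA and 176 ± 34.5 in Ro (SD, n = 2 each), a limma log2 difference of -0.76 (SE 0.27, unadjusted p = 0.0246). Slc7a5 had means of 220.2 ± 61.5 and 598 ± 417 (SD, n = 2 each), a limma log2 difference of -1.26 (SE 0.49, unadjusted p = 0.0380). All 3 had a limma adjusted p of 0.947. All 4 Wars probe sets tested gave a lower RA value, at -0.75 to -0.85, whereas the mean of both Pdia4 probe sets gave -0.09, its other probe set being dim.

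Arrays of RA and Ro did not overlap for 8 of the 42 genes. RA was higher for Aldh1l2 and Dnajc3, 4.76% of the genes against 14.7% of all genes tested. RA was lower for Slc7a5, Slc3a2, Wars, Pdia4, Dnajb9 and Syvn1, 14.3% against 20.4% of all genes. Both shares lie below the background. The limma log2 differences that belong to these genes were 0.57 for Aldh1l2 (SE 0.36), 0.46 for Dnajc3 (SE 0.22), -0.48 for Slc3a2 (SE 0.29), -0.45 for Dnajb9 (SE 0.27) and -0.27 for Syvn1 (SE 0.23). The ATF4 branch had a median of -0.20, with 19 of 24 genes below 0, and the ER branch had -0.02, with 10 of 18 below 0, beside -0.02 and 52.6% over all genes. The ATF4 median rested on a single Ro array. Without Ro replicate 1 it was 0.27, and without Ro replicate 2 it was -0.82. In the fit without Ro replicate 2, 4 genes were called lower in RA, as were 0.857% of probe sets. They were Slc7a5 at -2.03 (limma adjusted p = 8.46e-06), Ddit3 at -1.75 (0.000113), Atf5 at -1.43 (0.00620) and Aars at -1.32 (0.00837). Without Ro replicate 1 instead, Slc7a5 was at -0.48 and the other 3 turned sign, Ddit3 to 0.05, Atf5 to 0.76 and Aars to 0.16, with 0 of the 4 called. In the fit without Ro replicate 1, 1 gene was called, Psat1, higher in RA at 1.15 (limma adjusted p = 0.0223), as were 2.15% of probe sets. Without Ro replicate 2, Psat1 was at -0.43. In both of these fits the single Ro array is assumed to vary as the RA arrays do.

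**Figure D4:**
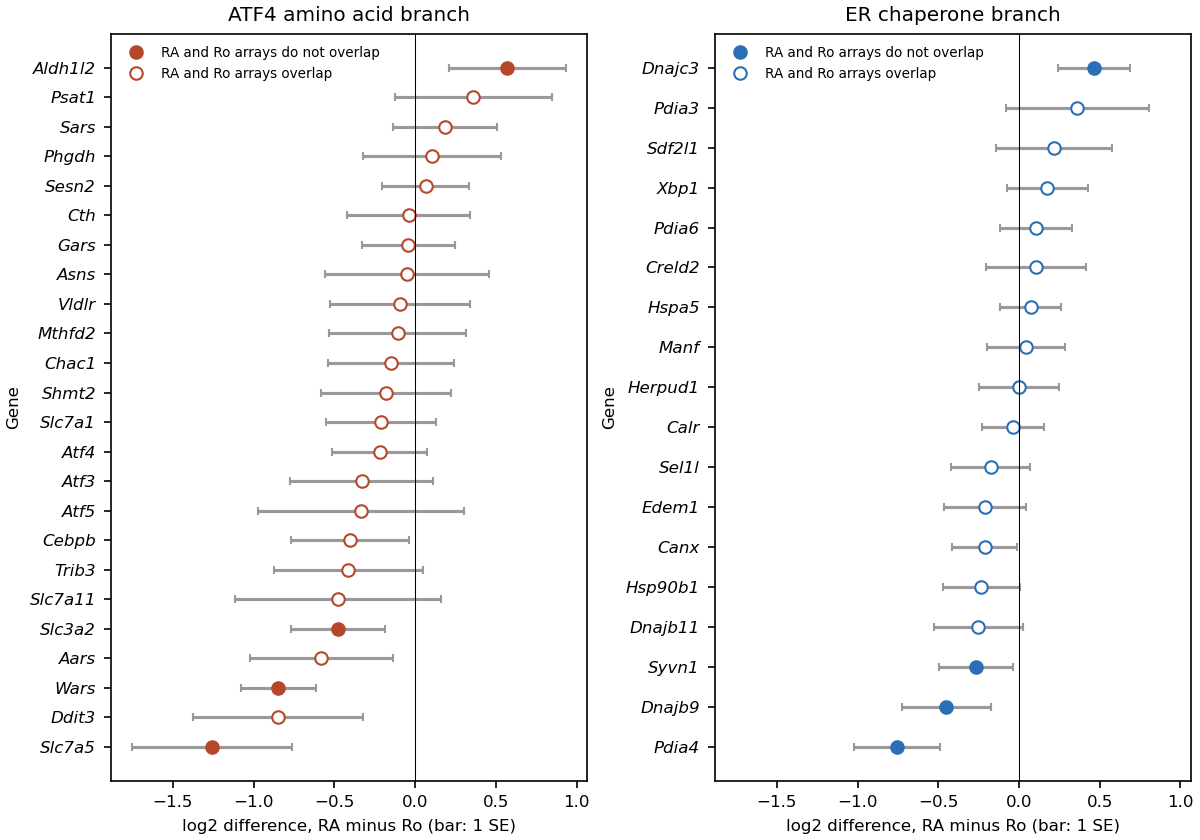
Log2 difference of RA minus Ro for the 42 genes with its standard error from limma, ordered within each branch, with filled points where the arrays of RA and Ro do not overlap. Of the ATF4 branch 19 of 24 values and of the ER branch 10 of 18 lie below 0, and 0 pass the adjusted threshold.

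The Control comparisons turned on which Control array was kept. Whichever was kept, Xist signal differed between Control and the other groups. With all 6 arrays, 0 of the 42 genes passed in RA minus Control, nor did any of the 29531 probe sets (0%), with 699 of these (2.37%) and 0 of the 42 at an unadjusted limma p under 0.05. For Ro minus Control the limma counts were 0 of 42 and 0 of all (0%), with 1647 probe sets (5.58%) and 0 of the 42 at the unadjusted mark. RA minus Control medians were -0.76 in the ATF4 branch, with 23 of 24 genes below 0, and -0.55 in the ER branch, with 15 of 18 below 0. Those of Ro minus Control, which share the same Control arrays, were -0.52 with 21 of 24 below 0 and -0.37 with 16 of 18 below 0. The medians over all genes were -0.002 and 0.0003. Without Control replicate 2 all 4 medians turned positive, to 0.35 and 0.22 for RA and to 0.55 and 0.36 for Ro, and 0 genes were called. Without Control replicate 1, 24 of the 42 genes were called lower in RA, 14 of the ATF4 branch and 10 of the ER branch, and 6.63% of probe sets were called lower. In the same setting 21 were called lower in Ro, 13 and 8 of them, and 7.75% of probe sets were called lower. These fits assume that the lone Control array varies as the RA and Ro arrays do. The most negative differences of RA from Control replicate 2 were those of Cth at -4.92 (SE 0.38, limma adjusted p = 0.00150) and Vldlr at -4.89 (SE 0.43, limma adjusted p = 0.00227), while Hspa5 was at -2.01 (SE 0.22, limma adjusted p = 0.00452). Edem1 was higher in both RA and Ro than on either Control array, at 0.30 (SE 0.31) and 0.51 (SE 0.31), as were 19.1% and 22.6% of all genes, and it was at 0.23 and 0.44 without Control replicate 2. The other Edem1 probe set overlapped between RA and Control, at 0.27, and was higher on both Ro arrays, at 0.55. Cebpb and Syvn1 were lower on both RA arrays than on both Control arrays, at -1.48 (SE 0.73) and -0.43 (SE 0.31), as were 10.3% of all genes. Without Control replicate 2 these were -0.32 and -0.16, and the other Syvn1 probe set overlapped between the groups. Pdia3 and Dnajc3 were lower on both Ro arrays, at -0.87 (SE 0.49) and -0.46 (SE 0.30), as were 12% of all genes, and at -0.83 and -0.60 without Control replicate 2. Their other probe sets did not share this. The 4 others of Dnajc3 were at -0.09, 0.19, 0.26 and 0.64, the last higher on both Ro arrays, and the other of Pdia3, which is dim, was at 0.53 and higher on both Ro arrays. None of these 5 genes passed limma's adjusted threshold (adjusted p of 0.703 to 0.997 over all 42 genes in both comparisons).

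The Control replicates and the Ro replicates differed by more than RA and Ro did in the median of either branch. Between the Control arrays, replicate 2 was higher for 23 of 24 ATF4 branch genes, 20 of them at least 2-fold, with a median log2 gap of 2.28. Gaps and their 2-fold counts are on the log2(signal + 2.99) scale. It was higher for 16 of 18 ER genes, 12 of them at least 2-fold, with a median gap of 1.43, and Dnajb9 just under on that scale (0.99, with signals 2.01-fold apart). Over all genes the median gap was 0.27, and 21.6% were at least 2-fold higher on replicate 2. Between the Ro arrays, replicate 1 was higher for 22 of 24 ATF4 branch genes, 13 at least 2-fold, with a median gap of 1.02. The largest of these were Atf5 at 2.20, Ddit3 at 1.80 and Asns at 1.70, and the exceptions were Cth and Vldlr. The ER branch had a median Ro gap of 0.31, with 14 of 18 genes higher on replicate 1 and 0 by 2-fold, and all genes had 0.03, with 9.11% at least 2-fold higher. The RA replicates had medians of 0.13 and 0.18 in the ATF4 and ER branches. Gaps between single arrays have no replicate check, and no test was made of them. The scaling of the arrays moved the Control gap but not its direction. With the values as deposited it was 1.52 and 0.67 in the ATF4 and ER branches. It was 1.74 and 0.86 with quantile normalization, and 2.00 and 1.15 with a common trimmed mean. Less the median gap of all genes in the same setting, it was 2.01 and 1.16 with the scaling used and 1.97 and 1.12 as deposited. On that measure quantile normalization gave 1.68 and 0.79, and the trimmed mean 2.00 and 1.15. These alternatives were all chosen for this gap after seeing the data.

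**Figure D5:**
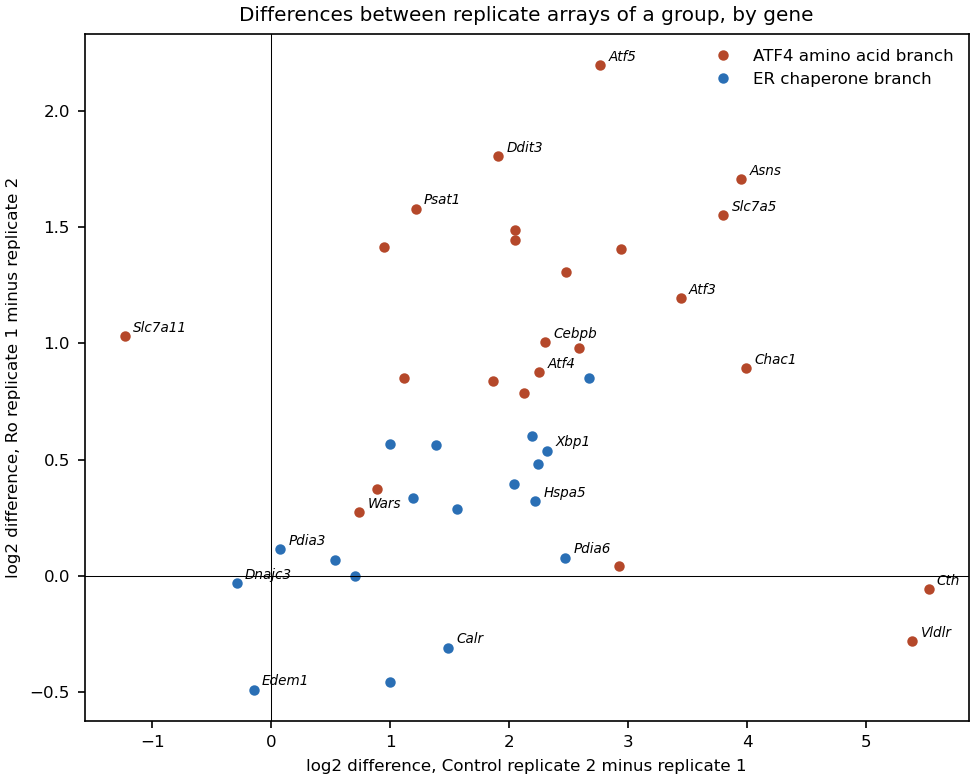
Log2 difference between the Control arrays (horizontal, replicate 2 minus replicate 1) and between the Ro arrays (vertical, replicate 1 minus replicate 2), with a point for each of the 42 genes. ATF4 branch genes (red) lie high on both axes, with medians of 2.28 and 1.02, and ER genes (blue) lie mainly to the right, with medians of 1.43 and 0.31.

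Other gene groups moved with these arrays. The 19 cell cycle genes were higher on Ro replicate 1 than on replicate 2 for 19 of 19, with a median log2 gap of 1.88, and 15 of 19 were lower on Control replicate 2 than on replicate 1, with a median gap of -1.89. Mki67, a marker of cycling cells, had signals of 2621 and 430.2 in Control, 4273 and 3426 in RA, and 4794 and 1866 in Ro. Over the list, the median centred log2 signal of the cell cycle genes was 1.14 and 0.51 in RA but 1.06 and -0.69 in Ro, so the first RA array was as high as the first Ro array, whereas the ATF4 branch was at -0.31 and 0.43 on them. The summed signal of 9 NK cell and CD8 T cell markers was 547 and 5469 in Control, 511 and 765 in RA, and 3033 and 895 in Ro, highest on the arrays where the ATF4 branch was highest. Cd8a, the marker that defines the second of these cell types, was at 10.8 to 76.3. Of the 7 markers of this list that were tested, all 7 were lower in RA than in Ro. For 4 of them RA and Ro did not overlap (57.1%, beside 20.4% of all genes). The mast cell and basophil markers summed to 3528 and 270 in Control, 1812 and 1473 in RA, and 5969 and 3587 in Ro. In RA minus Ro all 10 of these tested were below 0, with a median log2 difference of -1.26. For 9 of them RA and Ro did not overlap (90%, beside 20.4% of all genes). At an adjusted p of 0.05 limma called 2 of the 10 lower in RA, beside 0.0372% of probe sets called in either direction. Markers of macrophages and dendritic cells summed to 3629 and 308 in Control, 1448 and 1198 in RA, and 2760 and 913 in Ro. This sum and that of the mast cell and basophil list were lowest on Control replicate 2. That array was the lowest for 7 of the 12 macrophage and dendritic cell markers tested and the highest for 3. Of the 10 mast cell and basophil markers tested it was the lowest for 8 and the highest for 1. The part of these cell types and of proliferation in the stress gene signals was not tested.

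Control replicate 2 was also high in the wider pathway, where 62.2% of all genes tested were higher on it than on replicate 1, while Ro replicate 1 was higher than replicate 2 for 52.4% of all genes. Of 30 further amino acid response genes, 29 were higher on Control replicate 2 than on replicate 1 (median gap 1.93) and 22 on Ro replicate 1 than on replicate 2 (median gap 0.40). Eif4ebp1, which restrains cap-dependent translation, had signals of 295 and 4705 in Control, 405 and 355 in RA, and 396 and 262 in Ro. Nupr1, a stress-induced chromatin protein, had 9.91 and 437 in Control, 13.1 and 6.41 in RA, and 57.1 and 6.02 in Ro. Eif4ebp1 was high on the second Control array alone, and Nupr1 was also higher on the first Ro array than on the RA arrays. Of 36 further ER folding and degradation genes, 34 were higher on Control replicate 2 (median gap 0.89), and 23 on Ro replicate 1 (0.23). Among 19 genes for the sensors and the eIF2 alpha pathway, 15 were higher on Control replicate 2 (median gap 0.77), and 12 on Ro replicate 1 (0.16), shares nearer to those of all genes. The kinase genes went separate ways. Eif2ak4, which encodes GCN2, had 56.0 and 113 in Control, 74.9 and 86.0 in RA, and 68.0 and 74.7 in Ro, and was highest on Control replicate 2. Eif2ak3, which encodes PERK, had 315 and 199 in Control, 341 and 396 in RA, and 531 and 317 in Ro, and was lowest on Control replicate 2. Cytosolic heat shock genes, which answer misfolding outside the ER, were higher on Control replicate 2 for 14 of 17 (median gap 0.86), and on Ro replicate 1 for 11 of 17 (0.14).

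In RA minus Ro, limma called 0 of the genes in these pathway lists at an adjusted p of 0.05. The medians were -0.15 for the further amino acid genes, -0.09 for the further ER genes, -0.14 for the sensors and 0.01 for the heat shock genes. RA and Ro did not overlap, with RA higher or lower, for 5 and 6 of the 30 further amino acid genes, 2 and 7 of the 36 further ER genes, 1 and 5 of the 19 sensor genes and 1 and 2 of the 17 heat shock genes, beside 14.7% and 20.4% of all genes. Of each list up to 3 genes with the largest of these differences are named. Ddit4, an inhibitor of mTORC1, had signals of 1593 and 5870 in Control, 2880 and 1453 in RA, and 1204 and 951 in Ro, a limma log2 difference of 0.93 (SE 0.33, unadjusted p = 0.0258). Stc2, a secreted stress protein, had 51.7 and 338 in Control, 61.5 and 48.8 in RA, and 42.9 and 24.7 in Ro, a limma difference of 0.70 (SE 0.35). Atf6, the membrane-bound sensor that drives the ER branch, had 57.8 and 146 in Control, 62.8 and 70.4 in RA, and 108 and 89.5 in Ro, a limma difference of -0.54 (SE 0.27, unadjusted p = 0.0807). Ddit4 and Stc2 were higher, and Atf6 lower, on both RA arrays than on both Ro arrays. Other genes named by size had log2 differences of 0.75 for Cbs, which starts cysteine synthesis, -0.47 for Eif2ak1, the kinase HRI, and -0.45 for Nfe2l2, the oxidative stress factor NRF2. In the ER list they were 0.44 for Ubxn4, -0.36 for Derl1 and -0.35 for Txndc11, and in the heat shock list -0.44 for Hspb1, 0.38 for Hsf2 and -0.18 for Hspa4.

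Several probe sets were tested for 27 of the 42 genes. The sign of the Control replicate gap was shared by all probe sets of a gene for 24 of the 27, and that of the Ro gap for 15 of 15 ATF4 branch genes and 7 of 12 ER genes. In RA minus Ro the probe sets of a gene shared a sign for 12 of 15 and 5 of 12 genes.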

How the data were processed

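RNA of the 6 samples was labelled from 2 ug and hybridised to 1-colour arrays, per the labels. The values deposited by the authors are linear probe set intensity values for which the submitters' processing notes name MAS5 and no scaling target. Their trimmed means ran from 115 to 178.1, so each array was scaled to a common median here. Detection calls were not used, and signals of dim probe sets are noisy. The 64 control probe sets were left out. Of the rest, 34945 have 1 gene symbol in GEO's platform annotation, 932 have several and 9160 have none. Those above the 40th percentile of their array on at least 2 of the 6 arrays were tested, 29531 probe sets of 12948 genes. Log2(signal + 2.99), the 20th percentile of all values, was fitted with limma 3.58.1 under R 4.3.3, using lmFit and then trended eBayes, two-sided, and p-values were adjusted by Benjamini-Hochberg over all probe sets tested. The pseudocount understates differences of dim genes. RA minus Ro used 4 arrays (2 residual degrees of freedom), and the Control comparisons used all 6 (3 residual degrees of freedom). The probe set with the highest mean log2 signal stood for a gene. By rule, per-array signals were given for Asns, Atf4, Ddit3, Trib3, Chac1, Hspa5, Xbp1, Herpud1 and members whose arrays did not overlap between groups, and up to 3 such genes of each further pathway list were named by size. Other members and genes were added after their values were seen, and marker lists are given as sums. Titles gave groups and replicate numbers, and the third group is written both Ro and RO. At most 0.00444% of values were identical between a pair of arrays. The number of arrays limits the precision. The fit was tested on simulated data for RA minus Ro alone, with noise set from the RA and Ro replicates. The simulation held no outlying array and no group of 1 array. It therefore does not cover the Control comparisons or the fits that leave out an array. The members and lists were chosen with earlier results of these data known. Alternatives were other scalings, pseudocounts, filters, probe set rules and fits, a replicate block, and leaving out each array.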

Additional observations from a re-analysis of the deposited data

How the results depend on the processing

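For RA minus Ro, the 11 probe sets past limma's threshold became 3 with no filter, 4 with a filter at the 60th percentile, 0 with no intensity trend and 0 in a fit of all 6 arrays. With the replicate number as a block they became 130, with 0 of the 42 genes among them, and the block gave 0 calls for the Control comparisons. Same-numbered arrays deviated together with correlations of 0.004 (Control and RA), -0.026 (Control and Ro) and 0.25 (RA and Ro), so the numbers were not taken to pair the samples. Leaving out 1 array at a time gave 0 to 808 probe sets and 0 to 4 of the 42 genes for RA minus Ro, 0 to 3520 and 0 to 24 for RA minus Control, and 0 to 4334 and 0 to 21 for Ro minus Control. The medians of the ATF4 branch then ran from -0.82 to 0.27, from -1.89 to 0.35 and from -1.73 to 0.55 in the same order, and those of the ER branch from -0.18 to 0.09, from -1.08 to 0.22 and from -0.97 to 0.36. The turned signs belong to leaving out Ro replicate 1 (0.27 and 0.095 for RA minus Ro), Control replicate 2 (0.35, 0.22, 0.55 and 0.36) and Ro replicate 2 (0.02 for the ATF4 branch in Ro minus Control). The ER median of RA minus Ro was -0.24 as deposited, 0.018 with quantile normalization and 0.027 with a common trimmed mean, against -0.02. The trimmed mean was chosen after seeing the data. Less the median of all genes in the same setting, these were -0.0053, 0.0185 and 0.005, against 0.0035. The median gene thus shared the shift seen as deposited. Its cause was not tested, and a median this small has no settled direction. The Control replicate gap was 1.52 and 0.67 as deposited, where the scaling between arrays is absent. Less the median gap of all genes as deposited, it was 1.97 and 1.12. The alternatives for replicate gaps were all chosen after seeing the data. Of 43 alternatives each, the ATF4 medians moved in 1 and reversed in 4, and the ER medians moved in 2 and reversed in 5. Moved means a shift beyond the SD of the branch median between replicate arrays. For the ATF4 branch that SD was 1.19 in RA minus Control and 1.31 in Ro minus Control. The shifts to -1.89 and -1.73 without Control replicate 1 were therefore not counted. Other filters, or leaving out an array of the third group, could not change a median, so these counts do not measure robustness. Signal over background limits Slc7a11, Cth, Aldh1l2 and Vldlr, which were dim on most arrays. Atf3 was also dim on Control replicate 1, both RA arrays and Ro replicate 2, at 20.7 to 26.4. The median of all scaled values was 20.01.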
